A study of Bos taurus with 10 samples.

Results

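The enzymes and binding proteins that place, copy, protect and remove DNA methylation were examined in single bovine early blastocysts with and without base editing of *SOX2*. The 10 genes are *DNMT1*, *UHRF1*, *DNMT3A*, *DNMT3B*, *TRIM28*, *ZFP57*, *TET1*, *TET2*, *TET3* and *TDG*. They were picked by symbol, and all 10 were present among the 20112 genes of the expression table. The control group (WT) held 5 embryos (nc1 to nc5) that received only mRNA of BE3, a cytosine base editor, as zygotes. The *SOX2* knockout group (*SOX2* KO) held 5 embryos (ko1 to ko5) that received the same mRNA together with sgRNAs designed to turn *SOX2* codons into premature stop codons. The labels give an age of 7.0 days after fertilization for both groups, whereas the study's methods give a slightly later day. All embryos were produced in vitro with oocytes from abattoir ovaries, and the parents of each embryo are not given in the sources used here. WT therefore means injected but not targeted, and some edited blastocysts of the study were mosaic. The study genotyped each sequenced blastocyst from part of its own cDNA, a check that was not repeated here. Each library is 1 whole embryo, so fewer cells of a type and less RNA per cell cannot be told apart in any of these values.

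DNA methylation in mammals is a methyl group on cytosine, mostly where a G follows. After replication UHRF1 recognizes sites methylated on the old strand only and brings DNMT1 to restore them, while DNMT3A and DNMT3B methylate sites that carried no mark. The TET enzymes oxidize methylcytosine step by step, and TDG cuts out the most oxidized forms so that repair enzymes put an unmarked cytosine in their place. Mammalian embryos lose much of the methylation inherited from the gametes early in development and regain it later. Imprinted regions keep theirs through zinc finger proteins such as ZFP57 that recruit TRIM28.

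The measured quantity was the normalized read count, which is the number of reads on a gene divided by the size factor of its embryo. Reads on genes totalled 2223670 to 5134855 in WT, against 2578284 to 4337342 in *SOX2* KO embryos, and the 18S ribosomal RNA gene *RN18S1* took 26.4% to 37.0% and 32.5% to 45.0% of them. *SOX2* transcripts averaged 78.2 in WT and 56.6 in *SOX2* KO embryos (log2 fold change -0.55 with a standard error, SE, of 0.27, adjusted p = 0.167 in limma). Stop codons do not have to lower the transcript, and read counts do not show the edited bases. Among its partners in pluripotency, *POU5F1* fell from 1212 to 723 (adjusted p = 0.00631 in limma) and *NANOG* from 69.8 to 4.21 (adjusted p = 0.00127 in limma). *XIST*, the RNA of the inactive X chromosome, was low in nc2 (11.9) and ko4 (33.7), intermediate in nc4 (429) and between 1267 and 2819 in the other 7 embryos, so that the embryos of each group were not alike in it.

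Every member was detected in all 10 embryos, with at least 17 reads. The fit was limma on log2(normalized read count + 1) over 20056 genes, with Benjamini-Hochberg adjustment, and fold changes are *SOX2* KO relative to WT on that scale. At an adjusted p of at most 0.05, 1 of the 10 members passed, and that was *TRIM28*, which was lower in *SOX2* KO embryos. Among all genes tested, 13.6% passed in either direction, 3.2% as lower and 10.4% as higher. Of the 2081 higher calls, 552 lay among the 8364 genes with a mean at or above that of *UHRF1*, the member with the lowest mean (31.8). Over those 8364 genes, 6.66% passed as lower and 6.6% as higher. No member also changed 2-fold, against 10.1% of all genes, and limma, DESeq2 and edgeR each gave 0 members under both thresholds. Of the 8364 genes at or above the mean of *UHRF1*, 148 passed both thresholds as lower and 264 as higher in limma. Without adjustment, 5 members had p of at most 0.05 in limma, 5 in DESeq2 and 4 in edgeR. The share of all genes at that level was not counted, here or for the lists below, so these counts have no background. In limma the p of *TDG*, 0.0453, became 0.146 on adjustment, so such p-values were common among all genes. In none of the 10 members were the groups free of overlap, beside 9.17% of all genes tested and 9.68% of those at or above the mean of *UHRF1*. The median log2 fold change of the members was -0.08, which lies beside -0.08 for the genes at or above the mean of *UHRF1* and 0.25 for all genes.

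**Figure D1:**
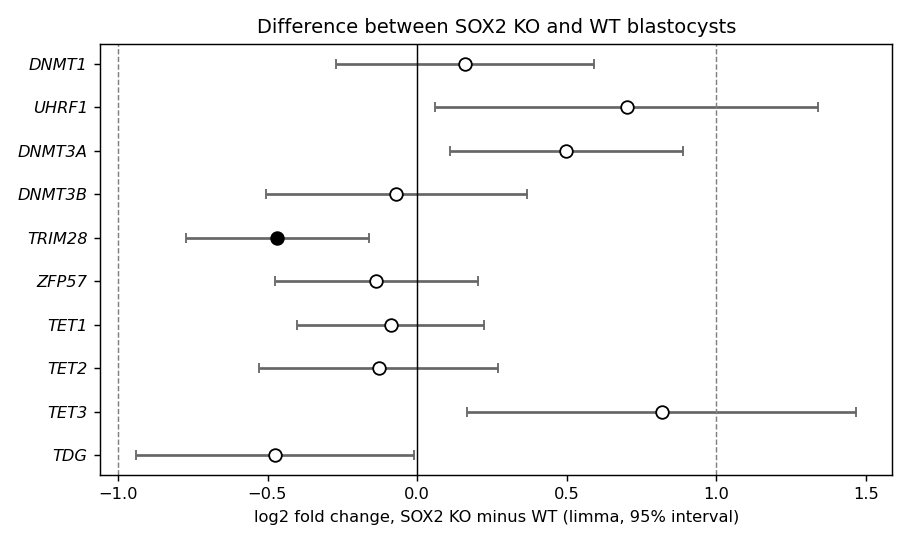
Log2 fold change of each member between SOX2 KO and WT embryos (x axis, limma fit, 5 embryos per group), with bars for the unadjusted 95% interval and dashed lines at a 2-fold change. The filled point, TRIM28 at -0.47, has an adjusted p of at most 0.05, and the intervals of UHRF1 and TET3 alone reach past the dashed line of 2-fold.

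Among the maintenance genes, *DNMT1*, which copies methylation onto the new strand, stood at normalized read counts of 96.9, 120.1, 103, 56.7 and 73.8 in nc1 to nc5 and 95.8, 85.8, 105, 92.8 and 111 in ko1 to ko5, the order used for every gene. The *SOX2* KO values lay within the wider WT range. Its log2 fold change was 0.16 (SE 0.21, 95% interval -0.27 to 0.59, adjusted p = 0.621 in limma). *UHRF1*, its guide to hemimethylated sites, had 13.0, 29.7, 23.9, 37.3 and 18.9 in WT and 31.2, 48.9, 48.8, 36.1 and 30.0 in *SOX2* KO embryos. Here 4 of the 5 WT embryos lay below every *SOX2* KO embryo, and nc4 lay among them. The log2 fold change was 0.70 (SE 0.31, 95% interval 0.06 to 1.34), with an adjusted p of 0.122 in limma and of 0.0505 to 0.628 over the 24 alternatives. The highest, 0.628, came from limma with the mean of trophectoderm markers as a covariate, which did not overlap between the groups. In that fit 81 of 20056 genes passed, so a high adjusted p there says little. With 17 to 48 reads per embryo, counting alone gave a coefficient of variation of about 20.1% in WT, of the 38.4% observed. In the newer assembly ARS-UCD2.0 the gene overlaps *ARRDC5*, which had 3 reads over the WT and 8 over the *SOX2* KO embryos, and the strand setting of the counting is not given in the sources used here. Both maintenance genes had a positive log2 fold change in all 24 alternatives, and neither passed in any of them.

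**Figure D2:**
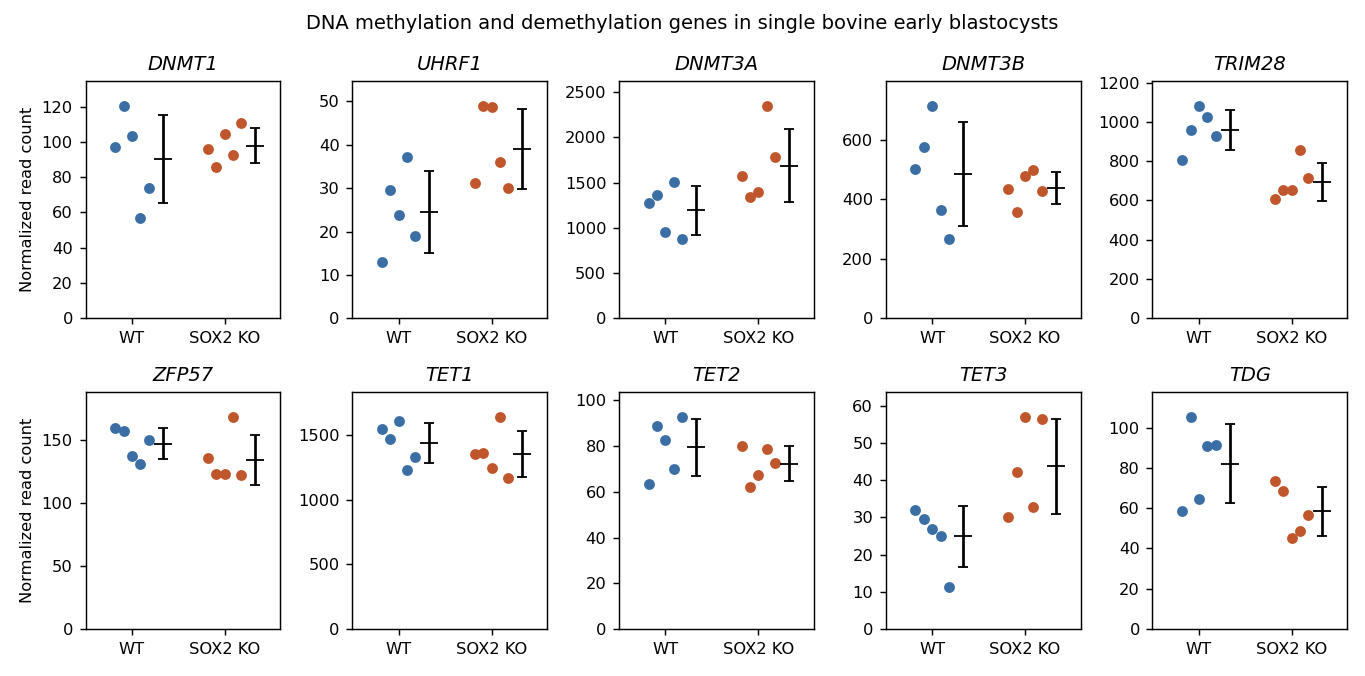
Normalized read counts (y axis, linear from 0, own scale per gene) of the 10 members in the 5 WT embryos (blue) and 5 SOX2 KO embryos (orange), each point 1 embryo, with the group mean and 1 SD in black beside the points. In TRIM28 the WT embryos span 807 to 1079 and those of SOX2 KO 607 to 855, and in every panel the groups overlap.

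Of the de novo methyltransferases, which set marks on bare sites, *DNMT3A* had 1272, 1367, 956, 1504 and 874 in the WT embryos and 1577, 1338, 1395, 2344 and 1785 in the *SOX2* KO embryos. Embryos ko1, ko4 and ko5 exceeded the highest WT embryo, and the value of ko4 was the highest of all. The group means were 1195 ± 270 (SD, n = 5) and 1688 ± 406 (SD, n = 5), a log2 fold change of 0.50 (SE 0.19, 95% interval 0.11 to 0.89) with an adjusted p of 0.0768 in limma. The direction was the same in all 24 alternatives, between 0.37 without ko4 and 0.62 with trophectoderm markers as a covariate. The adjusted p ran from 0.0170 to 0.460, and *DNMT3A* passed in 4 of them, which were the level of *XIST* as a covariate (0.0170), rescaling by the median ratio of genes averaging 100 or more (0.0211), quantile normalization (0.0292) and equal totals without *RN18S1* (0.0408). It did not pass in the main fit or in any of the 10 fits without 1 embryo, where its adjusted p was 0.0605 to 0.189. The 0.460 came from the trophectoderm covariate, which did not overlap between the groups.

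*DNMT3B*, the other de novo enzyme, had 501, 575, 713, 366 and 265 in WT and 434, 357, 478, 498 and 427 in *SOX2* KO embryos. The *SOX2* KO embryos sat inside the WT range. The coefficient of variation was 36.2% in WT, where counting alone gives 4.44%, and 12.5% in *SOX2* KO embryos, where it gives 5.11%. The log2 fold change was -0.07 (SE 0.21, 95% interval -0.50 to 0.37, adjusted p = 0.851 in limma), and its sign turned in 7 of the 24 alternatives. Within each embryo the ratio of *DNMT3A* to *DNMT3B* reads was 2.54, 2.38, 1.34, 4.11 and 3.30 in WT and 3.63, 3.75, 2.92, 4.71 and 4.18 in *SOX2* KO embryos. This ratio does not depend on how embryos are scaled, and as reads are not divided by transcript length it is no ratio of molecules. Embryos ko4 and ko5 lay above all WT embryos. The log2 ratio averaged 1.35 ± 0.61 for WT against 1.92 ± 0.26 for *SOX2* KO embryos (SD, n = 5 each). The difference was 0.57, beside an SD of 0.61 between single WT embryos, and no test was run on it. Without nc3 this difference was 0.34, and without nc4 it was 0.74.

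*TRIM28*, the co-repressor that zinc finger proteins recruit to imprinted regions and to transposable elements, had 807, 961, 1079, 1025 and 927 in the WT embryos and 607, 651, 651, 855 and 715 in the *SOX2* KO embryos. It fell by 27.5%, from 959.6 ± 104 (SD, n = 5) to 696 ± 97.0 (SD, n = 5). In 4 *SOX2* KO embryos the value was below the lowest WT embryo, while ko4 exceeded nc1. The log2 fold change was -0.47 (SE 0.15, 95% interval -0.77 to -0.16, adjusted p = 0.0407 in limma). The direction held in all 24 alternatives (-0.59 to -0.36), and the adjusted p, between 0.0118 and 0.522, passed in 11. Leaving out 1 embryo ended the call in 8 of 10 cases, with an adjusted p of 0.0736 without nc2, 0.0585 without nc3, 0.0858 without nc4, 0.0691 without nc5, 0.104 without ko1, 0.0689 without ko2, 0.0881 without ko3 and 0.0781 without ko5. The call remained without nc1 (0.0456) and without ko4 (0.0118). DESeq2 on the recovered reads passed it as well (0.0145), and edgeR did not (0.0572). The call was also lost under rescaling by the median ratio of genes averaging 100 or more (0.0685), quantile normalization (0.0556), the *RN18S1* share as a covariate (0.240) and the trophectoderm markers as a covariate (0.522). As the trophectoderm covariate did not overlap between the groups, the fit with it cannot decide on *TRIM28*.

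*ZFP57*, the zinc finger protein that binds methylated imprinted regions, had 159.5, 157, 137, 131 and 151 in WT and 136, 123, 123, 168 and 122 in *SOX2* KO embryos. Embryos ko2, ko3 and ko5 were below the WT range and ko4 above it. Its log2 fold change was -0.14 (SE 0.16, 95% interval -0.48 to 0.20, adjusted p = 0.589 in limma). Its spread in WT, a coefficient of variation of 8.42%, was close to the 7.91% that counting alone gives. The gene overlaps *MOG* in ARS-UCD2.0, whose group means were 15.1 and 19.3, and it belongs to a large zinc finger family, in which reads that match several genes may be shared. Per embryo the ratio of *ZFP57* to *TRIM28* reads was 0.127 to 0.198 in WT, against 0.171 to 0.224 in *SOX2* KO embryos, with only ko1 above the WT range.

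None of the TET enzymes passed the test. *TET1*, which carries a CpG-binding CXXC domain, had 1548, 1468, 1609.9, 1232 and 1327 in WT and 1356, 1359, 1244, 1639 and 1172 in *SOX2* KO embryos. The ranges nearly coincided, with ko4 just above and ko5 just below all WT embryos. The log2 fold change was -0.09 (SE 0.15, 95% interval -0.40 to 0.22, adjusted p = 0.715 in limma). *TET2*, which has no such domain of its own, had 63.3, 89.0, 82.5, 69.9 and 92.7 in WT and 80.2, 62.1, 67.4, 78.9 and 72.6 in *SOX2* KO embryos. Again the groups lay over each other, with a log2 fold change of -0.13 (SE 0.19, 95% interval -0.53 to 0.27, adjusted p = 0.674 in limma).

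*TET3*, the form that oocytes pass on to the zygote, had 32.1, 29.7, 26.8, 24.9 and 11.2 in the WT embryos and 30.1, 42.3, 57.0, 32.9 and 56.5 in the *SOX2* KO embryos. All *SOX2* KO embryos but ko1 exceeded the highest WT embryo, and nc5 was the lowest. The group averages of 24.9 ± 8.14 and 43.7 ± 12.7 (SD, n = 5 each) gave a log2 fold change of 0.82 (SE 0.31, 95% interval 0.17 to 1.47), the largest among the members. Its adjusted p was 0.0810 in limma and 0.0336 to 0.698 over the 24 alternatives, of which the fit with quality weights for each embryo alone passed. The values rest on 19 to 49 reads per embryo, and counting alone gives a coefficient of variation of 19.7% in WT, of the 32.6% observed. Leaving out nc5 lowered the log2 fold change to 0.57. With the *RN18S1* share as a covariate it was 0.36 (adjusted p = 0.698 in limma), and that share was 26.4% to 37.0% of WT reads, against 32.5% to 45.0% in *SOX2* KO embryos.

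Read against *TET3* within the same embryo, *TET1* had ratios of 48.3, 49.5, 60.0, 49.6 and 118 in WT and of 45.1, 32.2, 21.8, 49.9 and 20.7 in *SOX2* KO embryos. Of the *SOX2* KO embryos 4 lay below the WT range, and ko4 lay within it. On the log2 scale the ratio averaged 5.87 ± 0.52 (SD, n = 5) and 4.96 ± 0.57 (SD, n = 5), and nc5, where *TET3* had 19 reads, stood apart at 6.76. The ratio of *TET2* to *TET3* ran from 1.98 to 8.26 in WT, against 1.18 to 2.67 in *SOX2* KO embryos, with ko2, ko3 and ko5 below the WT range. *DNMT1* to *UHRF1* overlapped more, at 1.52 to 7.47 in WT, against 1.76 to 3.69 in *SOX2* KO embryos. Its log2 difference of -0.54 was -0.31 without nc1 and -0.86 without nc4.

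*TDG*, the glycosylase that removes oxidized methylcytosine, had 58.8, 105, 64.6, 90.9 and 91.5 in WT and 73.5, 68.7, 45.4, 48.5 and 56.5 in *SOX2* KO embryos. Embryos ko3, ko4 and ko5 were below all WT embryos, while nc2, nc4 and nc5 were above all *SOX2* KO embryos. The means of 82.2 ± 19.7 (SD, n = 5) and 58.5 ± 12.3 (SD, n = 5) gave a log2 fold change of -0.47 (SE 0.22, 95% interval -0.94 to -0.01). This is the size of the difference in *TRIM28* with a larger error. Its adjusted p was 0.146 in limma and 0.0925 to 0.715 over the 24 alternatives, none of which passed. The 0.715 came from the trophectoderm covariate, which did not overlap between the groups. With the *RN18S1* share as a covariate the log2 fold change was -0.27.

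**Figure D3:**
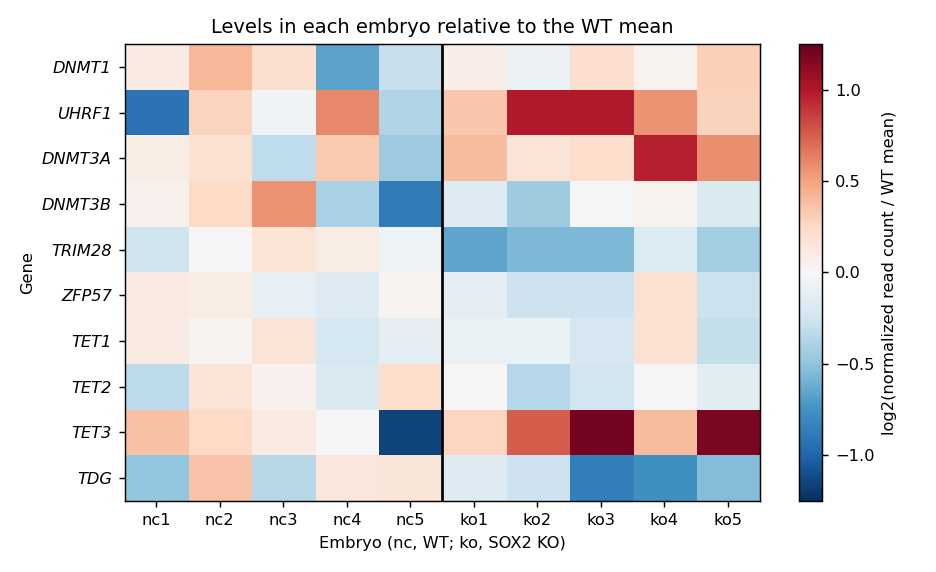
Level of each member (rows) in each embryo (columns, WT left of the line and SOX2 KO right of it) as log2 of the normalized read count over the WT mean, red above and blue below it. TRIM28 is below its WT mean in all 5 SOX2 KO embryos, TET3, UHRF1 and DNMT3A are above theirs in all 5, and ko4 departs from its group with high ZFP57, TET1 and DNMT3A.

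Across the members no embryo was high or low throughout. The plot of levels relative to the WT mean shows all 5 *SOX2* KO embryos above that mean for *DNMT3A*, *TET3* and *UHRF1*, and all 5 below it for *TRIM28* and *TDG*. Embryo ko4, 1 of the 2 with little *XIST* RNA, was the highest *SOX2* KO embryo in *DNMT3A*, *DNMT3B*, *TRIM28*, *ZFP57* and *TET1*. With *XIST* as a covariate, the log2 fold changes of the members moved by little, to 0.55 in *DNMT3A*, 0.83 in *TET3* and -0.45 in *TRIM28*. For *DNMT1*, *DNMT3A*, *DNMT3B*, *TET1*, *TET2*, *ZFP57*, *TRIM28* and *TDG* the whole 95% interval lay within a 2-fold change in either direction.

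In mean log2 level the epiblast and trophectoderm marker lists did not overlap between the groups. For S phase 4 *SOX2* KO embryos lay below all WT embryos, and for cumulus cells 4 lay above them. The marker lists therefore stand beside the members. Of 14 epiblast markers, 12 were in the table, and their summed normalized read counts were 1910 to 2523 in WT, against 1368 to 1698 in *SOX2* KO embryos. All 5 *SOX2* KO embryos were also below WT in the mean log2 level of this list, with 5 of 12 genes passing as lower, *POU5F1* having the highest read count. The calls of *KLF17* and *SALL4* each held in 6 of the 10 fits without 1 embryo. For all marker lists the shares to compare are 3.2% lower and 10.4% higher among all genes tested. At or above the mean of *UHRF1* they are 6.66% and 6.6%. The 14 trophectoderm markers, led by the keratin *KRT8*, summed to 28607 to 43487 in WT, against 40723 to 54660 in *SOX2* KO embryos, a sum made up mostly of *KRT8* and *KRT18*. The keratins *KRT18* (0.73) and *KRT19* (1.40) passed as higher and *TFAP2C* (-0.49) as lower on the log2 scale, while 11 of the 14, among them *CDX2*, *GATA3* and *KRT8*, did not pass. The calls of *KRT18* and *TFAP2C* held in 3 and 4 of the 10 fits without 1 embryo. In the mean log2 level the 5 *SOX2* KO embryos lay above all WT embryos, at 8.72 ± 0.22 against 8.23 ± 0.21 (SD, n = 5 each). With that mean as a covariate, *TRIM28* kept its direction at -0.43 (adjusted p = 0.522 in limma). As the covariate did not overlap between the groups, 81 of the 20056 genes passed in that fit.

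The primitive endoderm list (11 of 12 in the table, highest *GATA6* and *SPARC*) summed to 2549 to 3464 in WT, against 2487 to 3035 in *SOX2* KO embryos. Behind these overlapping sums 5 of the 11 genes passed, in both directions, beside 13.6% of all genes tested. *HNF4A* (-2.85), *PDGFRA* (-2.01) and *SPARC* (-1.56) were lower, and *APOA1* (1.71) was higher, on the log2 scale and with no overlap between groups. *LAMB1* (0.71) was also higher, with overlap, and held in 3 of the 10 fits without 1 embryo. The mean log2 level of the list was 6.66 ± 0.14 in WT against 6.41 ± 0.40 in *SOX2* KO embryos (SD, n = 5 each), and those ranges overlapped. Markers of S phase were all in the table, and whether *DNMT1* and *UHRF1* share their timing in these embryos was not tested. They summed to 3972 to 5655 in WT, against 3309 to 4494 in *SOX2* KO embryos, with 4 of 16 passing as lower. That stands beside 6.66% passing as lower among the 8364 genes at or above the mean of *UHRF1*. Fold changes were negative in 15 of the 16, beside 4885 of those 8364 genes. The calls of *MCM6* and *SLBP* held in 4 and 6 of the 10 fits without 1 embryo, and those of *TYMS* and *GINS1* in 9 and 10. The mean log2 level of the S phase list was 7.76 ± 0.18 in WT against 7.42 ± 0.14 in *SOX2* KO embryos (SD, n = 5 each). The log2 fold changes of *DNMT1* (0.16) and *UHRF1* (0.70) were positive, and neither passed. Cumulus cell markers (9 of 10 in the table, *CYP11A1* and *COL1A2* leading) summed to 91.9 to 196 in WT, against 251 to 669 in *SOX2* KO embryos, with *COL1A2* (1.23) and *DCN* (1.66) passing as higher on the log2 scale among the 9. The *DCN* call held in 2 of the 10 fits without 1 embryo. In the mean log2 level ko4 (2.45) lay inside the WT range of 2.15 to 3.21, and its sum of 251 was mostly *COL1A2* (218), with *CYP11A1* at 1.64. No gene of these lists was at 0 in all embryos. Whether the epiblast, S phase, primitive endoderm and cumulus lists play a part in the values of the members was not tested.

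Around the members, 97 other genes of the methylation pathways were grouped into 7 lists by role, of which 94 were in the table and 93 tested. In limma 9 of them passed as lower and 2 as higher, beside 3.2% and 10.4% of all genes, or 6.66% and 6.6% of the genes at or above the mean of *UHRF1*. The median log2 fold change of the 93 was -0.11.

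**Figure D4:**
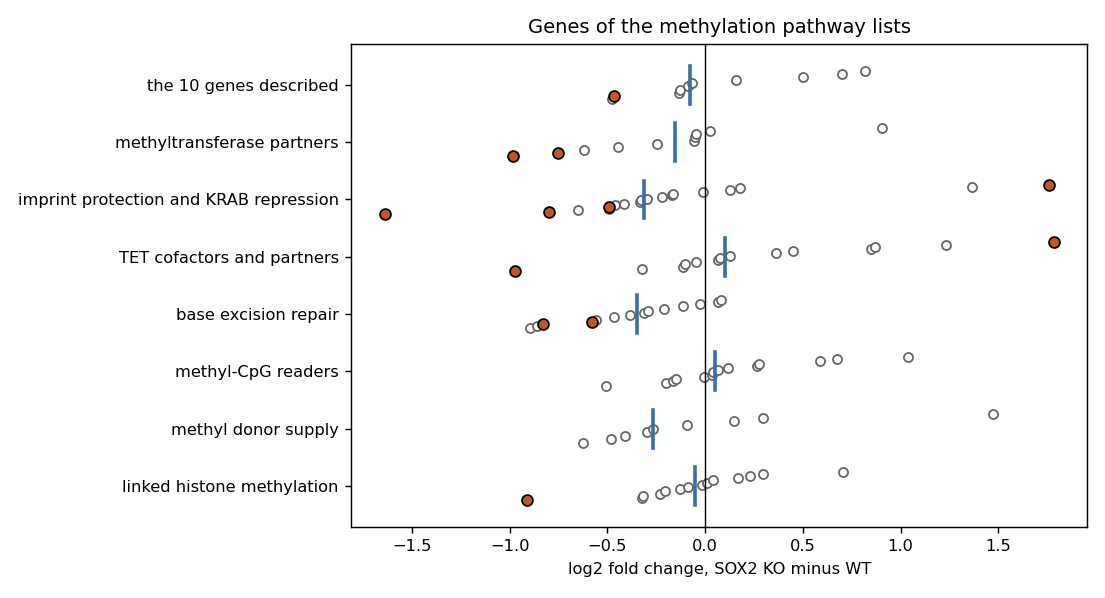
Log2 fold change between SOX2 KO and WT embryos (x axis, limma fit) of each tested gene, in the 10 members and the 7 pathway lists (rows). Filled points have an adjusted p of at most 0.05, open points do not, and blue bars are list medians, which run from -0.35 in base excision repair to 0.10 in TET cofactors.

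Among the 10 partners of the methyltransferases, 2 passed as lower, and the list median was -0.15. *HELLS*, the chromatin remodeler that opens DNA to methylation, had 138, 271, 195, 249 and 178 in WT and 94.6, 121, 102, 173 and 115 in *SOX2* KO embryos. It fell by 0.75 on the log2 scale (SE 0.20, adjusted p = 0.0214 in limma), with ko4 alone inside the WT range. *CDCA7*, the zinc finger protein that recruits HELLS, had 75.6, 84.5, 50.7, 95.6 and 56.1 in WT and 39.0, 29.1, 27.9, 58.3 and 28.8 in *SOX2* KO embryos, again with only ko4 reaching WT. Its log2 fold change was -0.98 (SE 0.26, adjusted p = 0.0187 in limma). The call of *HELLS* was lost without nc2, nc4, ko1, ko3 or ko5 (adjusted p up to 0.0650) and that of *CDCA7* without nc4 (0.0552) or ko5 (0.0537). The partners with the highest read counts, the ligase *LIG1* and the replication clamp *PCNA*, had log2 fold changes of -0.05 and -0.44 (adjusted p = 0.868 and 0.121 in limma).

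Of 20 genes for imprint protection and KRAB repression, 18 were tested, with 3 lower, 1 higher and a median of -0.31. *DPPA3*, which shields methylation in the zygote and binds UHRF1, had 607, 830.5, 764, 754 and 632 in WT and 206, 291, 187, 280.1 and 196 in *SOX2* KO embryos. No *SOX2* KO embryo reached the WT range, and the log2 fold change of -1.64 (SE 0.16, adjusted p = 4.86e-06 in limma) passed in all 24 alternatives. Of the lower calls among pathway genes it alone exceeded 2-fold. *ZNF445*, which acts at imprinted regions beside ZFP57, had 41.2 to 50.4 in WT, against 22.4 to 31.1 in *SOX2* KO embryos, and *CTCF*, the insulator that binds some imprinted regions only when unmethylated, had 231 to 270.5 and 149 to 209.9. Neither gene overlapped between groups, with log2 fold changes of -0.80 and -0.49 (adjusted p = 0.0347 and 0.0394 in limma).

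Both of those calls were lost in most of the 10 fits without 1 embryo, though the direction stayed. The log2 fold change ran from -0.87 to -0.75 in *ZNF445* and from -0.55 to -0.43 in *CTCF*. *ZNF445* lost its call without any embryo but nc3 or ko4 (adjusted p up to 0.0779), and *CTCF* without any embryo but ko4 (up to 0.107). The higher gene was *NLRP5*, a maternal-effect gene of the oocyte, with 3.05 in nc1, 0 in the other WT embryos and 2.31 to 6.98 in *SOX2* KO embryos. These values rest on 4 reads in WT, all in nc1, and 17 in *SOX2* KO embryos (adjusted p = 0.0407 in limma, lost in DESeq2 at 0.144 and without nc2, nc3, nc4, nc5, ko1, ko3 or ko5 at up to 0.0941). *CBX5*, a heterochromatin protein and after *DPPA3* the gene of the list with the highest read count, had a log2 fold change of -0.17 (adjusted p = 0.434 in limma).

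TET cofactors and partners numbered 14, with 1 lower, 1 higher and a median of 0.10. *UNG*, the glycosylase that removes uracil from DNA, had 158, 252, 117, 197 and 145 in WT and 77.9, 72.6, 77.9, 117 and 85.3 in *SOX2* KO embryos. It fell by 0.97 on the log2 scale (SE 0.21, adjusted p = 0.00618 in limma), and ko4, at the level of nc3, was the only embryo to reach WT. *CXXC4*, a CpG-binding partner of TET2, was at 0 in all WT embryos and in ko2, and had 7.79, 5.81, 0.82 and 3.46 in ko1, ko3, ko4 and ko5. Against a floor of 3 reads per library, its *SOX2* KO mean was at least 1.29-fold higher (adjusted p = 0.0483 in limma, lost without any embryo but ko2 or ko4, up to 0.114), and the list median stayed at 0.10 with the gene at that bound. The genes of the list with the highest read counts, *IDH1*, which makes the cosubstrate of the TET enzymes, and *OGT*, the sugar transferase bound by them, had log2 fold changes of -0.11 and -0.32 (adjusted p = 0.742 and 0.365 in limma).

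The base excision repair list held 14 genes, both for steps after TDG and for other glycosylases, such as *OGG1* and *MUTYH*. Of the 14 genes, 2 passed as lower and none as higher. Fold changes were negative in 12 (median -0.35), beside 4885 negative among the 8364 genes at or above the mean of *UHRF1*. *APEX1*, the main endonuclease at sites without a base, had 409.8, 602, 374, 429.7 and 472 in WT and 307, 281, 299, 414 and 234 in *SOX2* KO embryos, and *APEX2*, its relative, had 121, 59.3, 130.3, 129 and 119.8 and 85.7, 48.9, 87.2, 32.9 and 64.6. In *APEX1* ko4 alone reached WT, and in *APEX2* nc2 lay among the *SOX2* KO embryos. Their log2 fold changes were -0.58 and -0.83 (adjusted p = 0.0310 and 0.0465 in limma). DESeq2 passed 5 genes of this list, and edgeR, which tested 13 of the 14, passed 0. Without adjustment each of limma, DESeq2 and edgeR had 6 with p of at most 0.05, a level without a counted share of all genes. *APEX1* lost its call without nc2, nc4, nc5, ko1, ko2, ko3 or ko5 (up to 0.0987), and *APEX2* without nc1, nc3, nc4, nc5, ko2, ko4 or ko5 (up to 0.104). *PARP1*, a sensor of DNA breaks with the highest read count of the list, had a log2 fold change of -0.11 (adjusted p = 0.627 in limma).

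Readers of methylated CpG (14 genes, median 0.05) had no gene past the threshold in limma, DESeq2 or edgeR, and 1, 0 and 0 genes without adjustment. After its own filter edgeR tested 12 of the 14. *CHD4* and *GATAD2A*, subunits of the NuRD repressor complex, had the highest read counts, with log2 fold changes of -0.20 and 0.11 (adjusted p = 0.462 and 0.698 in limma). Methyl donor supply (9 of 11 genes tested, 8 in edgeR, median -0.27) also had 0 genes past the threshold in all 3 tools, and 3, 3 and 2 without adjustment. Its highest read counts were those of *AHCY*, which clears the by-product of methylation, at -0.09 (adjusted p = 0.691 in limma), and of *MAT2A*, which makes the methyl donor S-adenosylmethionine, at -0.48 (adjusted p = 0.0834 in limma).

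Among 14 histone methylation genes linked to DNA methylation, 1 was lower and none higher, with a median of -0.05. *KDM2B*, a histone demethylase that binds unmethylated CpG islands, had 258, 335, 193, 263 and 218 in WT and 150.3, 111, 167, 105 and 135 in *SOX2* KO embryos. The groups did not overlap, and the log2 fold change of -0.91 (SE 0.18, adjusted p = 0.00394 in limma) passed in 22 of the 24 alternatives and in all 10 fits without 1 embryo. Its paralog *KDM2A* and the histone methyltransferase *NSD1*, with the highest read counts of the list, had log2 fold changes of 0.04 and -0.21 (adjusted p = 0.902 and 0.308 in limma). Of the 93 pathway genes the groups were free of overlap in 4, beside 9.17% of all genes tested, which are *ZNF445*, *DPPA3*, *CTCF* and *KDM2B*.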

How the data were processed

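Libraries of single blastocysts were made with Smart-seq2, which primes on poly(A) tails and carries no molecular identifiers, so counting intervals cover counting error only. Trimmomatic, HISAT2 (assembly ARS-UCD1.2) and featureCounts were the authors' tools for trimming, mapping and counting, and the deposited table is a normalized signal, read counts divided by DESeq2 size factors. The annotation, the strand setting and the treatment of reads that match several genes are not given in the sources used here. Within 0.001 reads, 100% of the values could be written as whole reads times 1 constant for each embryo, and the table holds no gene under 11 reads over the 10 embryos.

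Columns were assigned to groups by their names. The main test was limma 3.58.1 (lmFit, eBayes with trend) on the log2 of the normalized read count plus 1, for 20056 genes averaging 1 or more, with Benjamini-Hochberg adjustment over all of them, on a scale that understates changes of genes with few reads. DESeq2 1.42.0 and edgeR 4.0.16 (quasi-likelihood, TMM) on the recovered reads, other pseudocounts (0.1 and 5), filters and scalings, array quality weights, 3 covariates and leaving out each embryo were alternatives, and equal totals without *RN18S1* was added after the values were seen. The scripts were tested on simulated data in R 4.3.3 and Python 3.11.15. Each p-value weighs a group difference against the spread between these embryos, with information on spread shared over genes.

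Members and gene lists were chosen with earlier results of these data known, so no p-value is given over a list. Named were the members, pathway genes past the threshold, the 2 genes with the highest mean in each pathway list, *SOX2*, *POU5F1*, *NANOG*, *XIST* and *RN18S1*, the marker genes with the highest means, further marker genes (chosen after their values were seen), and 2 genes that overlap members. Gene symbols were used as in the table, with 1 older symbol matched through RefSeq. Apart from the overlaps of *ARRDC5* and *MOG* with members in ARS-UCD2.0, coordinates were not analysed here, and neither were promoter sequences.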

Additional observations from a re-analysis of the deposited data

Results flagged for a closer look

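Within a group of 5 embryos, 7 of 96 sets of values held 1 embryo whose gap to the nearest other was above 0.71 of the whole range (Dixon's 95% limit), where chance alone gives about 1 in 20, or 4.8. The log2 ratio of *TET1* to *TET3* was 6.76 in nc5 and 5.55 to 5.85 in the other WT embryos. Normalized read counts of *UNG* were 117 in ko4 and between 72.6 and 85.3 in ko1, ko2, ko3 and ko5, and those of *IDH1* were 998 in ko4 and 509 to 578 in the others. *APEX2* had 59.3 in nc2 and 119.8 to 130.3 in the other WT embryos. *OGT* had 567 in ko1, while the rest of its group had 209 to 303. *NLRP5* had 3.05 in nc1 and 0 in the other WT embryos. The mean log2 level of the cumulus cell markers was 2.45 in ko4, while the rest of its group had 3.90 to 4.47. The causes were not tested.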

How the results depend on the processing

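The count of members past the threshold was 1 and became 2 with array quality weights (*TET3* added), with *XIST* as a covariate and with equal totals without *RN18S1* (*DNMT3A* added in both). It became 0 with edgeR, with the *RN18S1* share or trophectoderm markers as a covariate and with the 2-fold threshold added, and ran from 0 to 1 when 1 embryo was left out. With the median ratio and with quantile normalization it stayed at 1, but the member was *DNMT3A*, higher, and no longer *TRIM28*, lower. Of the pathway genes 11 passed, against 21 with array quality weights, 7 with edgeR, 1 with either the *RN18S1* share or trophectoderm markers as a covariate, 3 with the 2-fold threshold added, and 3 to 20 when 1 embryo was left out, lowest without ko5 and highest without ko4. Over all genes 2722 passed in limma, against 3003 in DESeq2, 1099 in edgeR, 4901 with array quality weights, 1623 with quantile normalization, 1280 at a mean of 10 or more, 253 with the *RN18S1* share and 81 with trophectoderm markers as a covariate, and 1224 to 4508 when 1 embryo was left out. After its own filter edgeR tested 11176 genes, fewer than limma. Equal totals moved the median log2 fold change of all genes by -0.11, the *RN18S1* covariate by -0.11 and quantile normalization by -0.27. No gene whose sign turned had passed the threshold, and the cause was not tested. *DNMT3B* became 0.0335 with the median ratio, 0.000495 with quantile normalization, 0.0116 with array weights and 0.444 with trophectoderm markers as a covariate, and lay between -0.265 and 0.0911 when 1 embryo was left out (positive without nc2, nc3 or ko2). With the median ratio *TET1* became 0.0142, *LIG1* 0.0544 and *AHCY* 0.00953. With trophectoderm markers as a covariate *TET1* became 0.237, *ZFP57* 0.0652, *LIG1* 0.215, *IDH1* 0.0283, *PARP1* 0.0354 and *GATAD2A* -0.102. With the *RN18S1* share as a covariate *PCNA* became 0.00451, *GATAD2A* -0.170 and *KDM2A* -0.165. With equal totals *GATAD2A* became -0.00786 and *KDM2A* -0.0843, and with quantile normalization *LIG1* became 0.0228. When 1 embryo was left out, *LIG1* ran from -0.124 to 0.0795 (positive without nc3 or ko3), *IDH1* from -0.289 to 0.0258 (positive without nc3) and *KDM2A* from -0.0563 to 0.191 (negative without nc2, nc4, nc5, ko4 or ko5). No paired analysis was possible because ko1 to ko5 cannot be matched to the replicate numbers in the labels, so the replicate block was not run. *TET3* and *UHRF1*, with under 50 reads per embryo, are the members where depth limits most.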
